A study of Canis lupus familiaris with 8 samples.

Results

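Retinal ganglion cells are the output neurons of the eye, and their axons form the nerve fibre layer and the optic nerve. This account follows 10 genes that mark these cells or serve long axons, homeobox factors aside: the marker genes THY1, RBPMS, SNCG, SLC17A6 and EBF1, the neurofilament genes NEFL, NEFM and NEFH, and the growth-related genes GAP43 and STMN2. They were chosen by symbol and looked up in a deposited table of 12824 genes, which held 9 of them. RBPMS was not analysed here.

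The samples were retina of male wild-type Beagle dogs aged 31 weeks. The 4 PFA-fixed libraries came from left eyecups held in 4% paraformaldehyde (PFA, a crosslinking fixative) for 3 h and in 2% for a further 24 h, then in sucrose, and their RNA was taken with a kit for paraffin-embedded tissue. The 4 fresh-frozen libraries came from right eyecups that were frozen unfixed, with RNA from a column kit. Fixation, side of the eye and extraction kit thus changed together and cannot be told apart, and the labels do not say which libraries share a dog. Eyecups were cut into 4 quadrants, and the labels do not tell which quadrant a library came from, so n = 4 counts libraries of unknown retinal position.

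Neurofilaments are the intermediate filaments of neurons, built from a light (NEFL), a medium (NEFM) and a heavy (NEFH) subunit, and they are most abundant in large cells with long axons. In the retina such cells are chiefly ganglion cells, although horizontal cells of several mammals also hold neurofilament protein. In bulk tissue, fewer cells of a type and less RNA per cell cannot be told apart. Levels below are log2 CPM, the log2 of counts corrected for library size, and are compared for the same gene between libraries. A change is the PFA-fixed minus the fresh-frozen mean on that scale, and a gene counts as changed at an adjusted p under 0.05 in limma over all genes.

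The effective depth, estimated from the spacing of low values, was 11030000 to 15410000 reads in PFA-fixed and 21670000 to 22750000 in fresh-frozen libraries. The lowest estimate for any of the 9 genes in a library was about 130 reads, for SLC17A6, so none of them lay near the floor of the table. Of the 9 genes, 2 rose and 4 fell in PFA-fixed retina, and 3 did not pass the test. Of all genes, 68.7% passed it, 33.9% upward and 34.7% downward, so the share of these genes that changed (66.7%) was near the background. The groups did not overlap for 3 of the 9 genes, against 62.9% of all genes. Their median change was -0.51, against -0.02 for all genes tested.

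**Figure D1:**
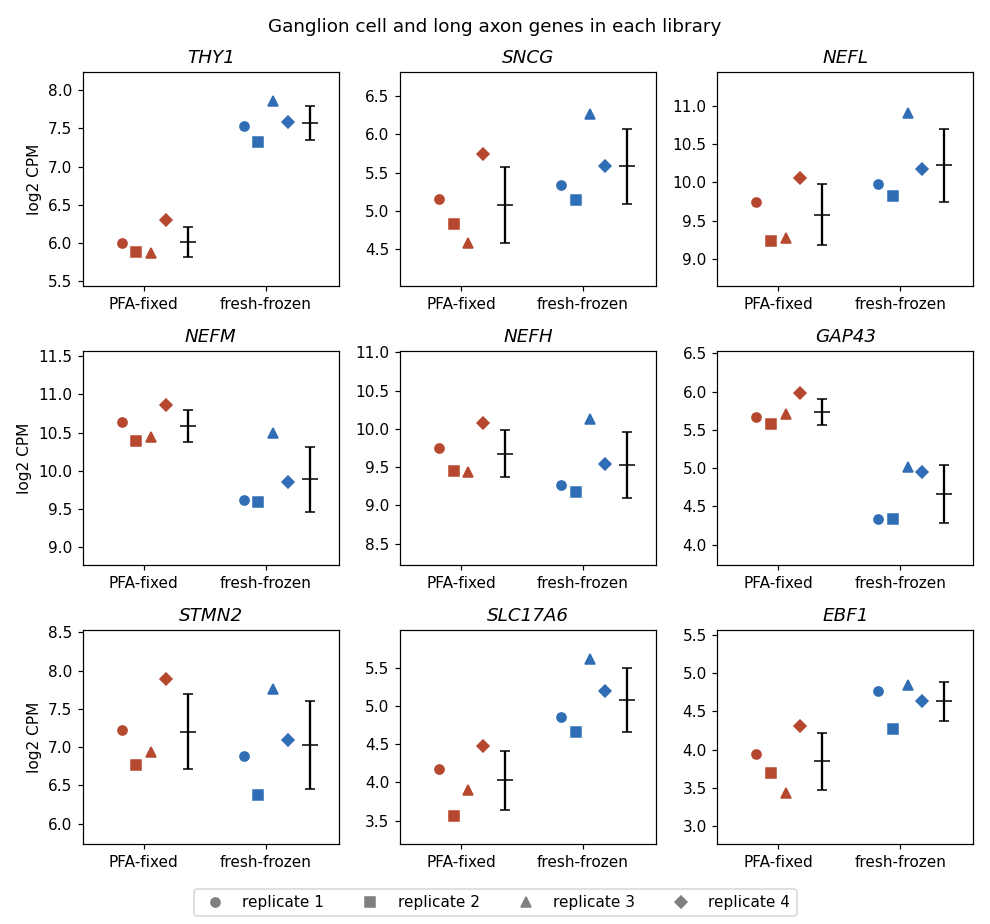
Level of each of the 9 genes (log2 CPM, vertical axes of equal width that start at different levels) in the 4 PFA-fixed and the 4 fresh-frozen libraries, where each symbol is 1 library and the bar gives the group mean ± SD. In every panel PFA-fixed replicate 4 and fresh-frozen replicate 3 are the highest of their groups, and the groups are apart for THY1, GAP43 and SLC17A6.

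THY1 encodes a small glycoprotein anchored in the membrane of ganglion cells, and it is also made by fibroblasts and other cells. It stood at 6.004, 5.88, 5.87 and 6.30 log2 CPM in PFA-fixed replicates 1 to 4, and at 7.54, 7.32, 7.86 and 7.58 in fresh-frozen replicates 1 to 4. All PFA-fixed libraries lay below all fresh-frozen ones, a separation in this direction that 31.6% of all genes showed. THY1 fell by 1.56 ± 0.12 (SE) on the log2 scale (limma adjusted p = 3.75e-07), to 6.01 ± 0.20 log2 CPM in PFA-fixed retina, against 7.57 ± 0.22 in fresh-frozen retina (SD, n = 4 each).

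Markers of fibroblasts, which also make THY1, fell as well. All 11 measured fibroblast and sclera markers were lower, with a median change of -7.02, and their summed level ran from 267 to 319 CPM in PFA-fixed and from 9360 to 11926 CPM in fresh-frozen libraries. One such marker, the dermatopontin gene DPT, stood at the lowest value of the table in PFA-fixed replicates 1 and 3. The part of these cells in the fall of THY1 was not tested.

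SLC17A6 encodes the vesicular glutamate transporter VGLUT2, which loads synaptic vesicles of ganglion cells with glutamate. Its levels were 4.18, 3.57, 3.91 and 4.47 log2 CPM in PFA-fixed replicates 1 to 4, and 4.85, 4.65, 5.61 and 5.20 in fresh-frozen replicates 1 to 4. The groups did not overlap, and the gene fell by 1.05 ± 0.22 (SE; limma adjusted p = 0.00123). SLC17A7, the related transporter VGLUT1 of photoreceptor and bipolar cell terminals, averaged 9.53 ± 0.06 log2 CPM in PFA-fixed and 9.10 ± 0.13 in fresh-frozen retina (SD, n = 4 each). It rose by 0.44 (limma adjusted p = 0.000221), a rise that was lost when libraries were centred on the rod genes (0.16 with their mean and -0.21 with their median). Such centring also removes any rise that SLC17A7 shares with the rod genes, whose median change was 0.28 as deposited. SLC17A8, the third transporter of the family, changed by -0.15 and did not pass (limma adjusted p = 0.658).

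EBF1 encodes a helix-loop-helix transcription factor, known in the mouse from ganglion and amacrine cells and, outside neurons, from pericytes and fibroblasts. It stood at 3.95, 3.70, 3.44 and 4.30 log2 CPM in PFA-fixed replicates 1 to 4, and at 4.76, 4.27, 4.85 and 4.63 in fresh-frozen replicates 1 to 4. The groups overlapped only through PFA-fixed replicate 4 and fresh-frozen replicate 2. EBF1 fell by 0.78 ± 0.18 (SE; limma adjusted p = 0.00251). Its paralogs EBF2, EBF3 and EBF4 fell by 2.08, 0.77 and 1.39. EBF3 (limma adjusted p = 0.0293) no longer passed when any of PFA-fixed replicates 1, 2 and 3 or fresh-frozen replicates 3 and 4 was left out. All 9 measured pericyte and smooth muscle markers fell beside them, with a median change of -2.69 and a summed level of 356 to 439 CPM in PFA-fixed and 1618 to 2369 CPM in fresh-frozen libraries, and their part in the changes of the EBF genes was not tested.

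SNCG encodes gamma-synuclein, a soluble protein abundant in ganglion cell bodies and axons. Its levels were 5.16, 4.83, 4.58 and 5.74 log2 CPM in PFA-fixed replicates 1 to 4, and 5.34, 5.15, 6.26 and 5.58 in fresh-frozen replicates 1 to 4. The groups overlapped, and the change of -0.51 ± 0.26 (SE) did not pass (limma adjusted p = 0.105), with a 95% confidence interval of -1.08 to 0.07. The call depended on PFA-fixed replicate 4, without which the change was -0.73 (limma adjusted p = 0.0159). The beta-synuclein gene SNCB fell by 0.25 (limma adjusted p = 0.0443). It no longer passed when any of PFA-fixed replicates 1, 2 and 3 or fresh-frozen replicates 3 and 4 was left out, and stood at -0.15 without fresh-frozen replicate 3.

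The RNA-binding protein gene RBPMS2, the close relative of RBPMS, was measured and is likewise known from ganglion cells. It fell by 0.95 ± 0.25 (SE; limma adjusted p = 0.00533), with 3.64 ± 0.59 log2 CPM in PFA-fixed and 4.59 ± 0.28 in fresh-frozen retina (SD, n = 4 each). All 4 PFA-fixed libraries lay below all fresh-frozen ones, PFA-fixed replicate 4 by a margin that vanishes at 2 decimals. Of the 18 measured relatives of the 10 genes, RBPMS2 included, 2 rose and 12 fell, with a median change of -0.70.

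The 3 neurofilament genes did not change alike. NEFL levels were 9.75, 9.23, 9.28 and 10.06 log2 CPM in PFA-fixed replicates 1 to 4, and 9.98, 9.83, 10.90 and 10.18 in fresh-frozen replicates 1 to 4. The groups overlapped only through PFA-fixed replicate 4, which exceeded fresh-frozen replicates 1 and 2. NEFL fell by 0.64 ± 0.23 (SE; limma adjusted p = 0.0265). This call ended without fresh-frozen replicate 3 (-0.42, limma adjusted p = 0.0607), PFA-fixed replicate 2 (-0.53, limma adjusted p = 0.0840) or PFA-fixed replicate 3 (-0.54, limma adjusted p = 0.0787), and with limma without an intensity trend (limma adjusted p = 0.0597).

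NEFM, whose gene is the direct neighbour of NEFL in the dog assembly UU_Cfam_GSD_1.0, moved the other way. It stood at 10.64, 10.40, 10.45 and 10.86 log2 CPM in PFA-fixed replicates 1 to 4, and at 9.62, 9.59, 10.50 and 9.86 in fresh-frozen replicates 1 to 4. PFA-fixed libraries were all above fresh-frozen replicates 1, 2 and 4, and fresh-frozen replicate 3 lay among them. NEFM rose by 0.70 ± 0.18 (SE; limma adjusted p = 0.00470).

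NEFH, the subunit with the long phosphorylated tail, had 9.75, 9.44, 9.43 and 10.08 log2 CPM in PFA-fixed replicates 1 to 4, and 9.27, 9.18, 10.13 and 9.54 in fresh-frozen replicates 1 to 4. Fresh-frozen replicate 3 was above every PFA-fixed library and the other 3 fresh-frozen libraries were within or below the PFA-fixed range. The change of 0.14 ± 0.20 (SE) did not pass (limma adjusted p = 0.535), and its 95% confidence interval ran from -0.29 to 0.58.

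The unequal change was tested on log2 ratios of 2 subunits within a library, which do not depend on how libraries are scaled to each other. The NEFM to NEFL ratio was 0.90, 1.16, 1.17 and 0.81 in PFA-fixed replicates 1 to 4, and -0.36, -0.24, -0.40 and -0.32 in fresh-frozen replicates 1 to 4. The groups were far apart, with means of 1.01 ± 0.18 in PFA-fixed and -0.33 ± 0.07 in fresh-frozen libraries (SD, n = 4 each). The difference of 1.34 on the log2 scale, a 2.53-fold change of the ratio, had the smallest p that an exact two-sided permutation of 4 against 4 can give (p = 0.0286, adjusted p = 0.0286 over 3 ratios).

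The NEFH to NEFL ratio averaged 0.10 ± 0.10 in PFA-fixed and -0.69 ± 0.06 in fresh-frozen libraries (SD, n = 4 each). The NEFH to NEFM ratio averaged -0.91 ± 0.10 in PFA-fixed and -0.36 ± 0.04 in fresh-frozen libraries (SD, n = 4 each). These differences were 0.79 and -0.55, again without overlap (exact permutation p = 0.0286 and adjusted p = 0.0286 for each). The ratios are not independent, since each follows from the others. How often ratios of other gene pairs separate the groups was not determined. Of all genes taken singly, 62.9% did not overlap. Leaving out any single library kept the difference of the NEFM to NEFL ratio between 1.29 and 1.41. Relative to both partners, NEFM was higher and NEFL lower in PFA-fixed than in fresh-frozen libraries.

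**Figure D2:**
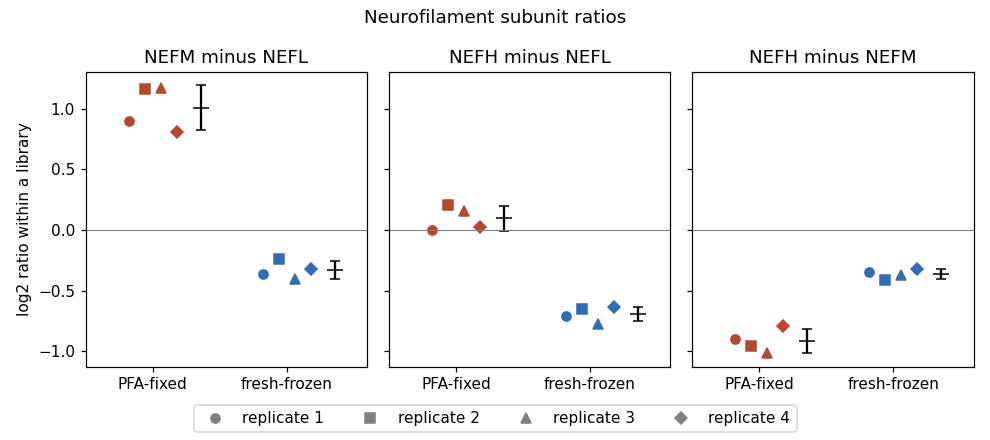
Log2 ratio of 2 neurofilament genes within each library (vertical axis), for the 3 pairs of subunits, in PFA-fixed and fresh-frozen libraries, where each symbol is 1 library and bars give the group mean ± SD. No pair of groups overlaps, and the gap is largest for NEFM minus NEFL (1.34).

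The 3 genes together took 3170 ± 637 CPM in PFA-fixed and 2997 ± 1022 CPM in fresh-frozen libraries (SD, n = 4 each), so the sum differed by less than its spread. Fresh-frozen replicate 3 held 4486 CPM and the other 3 fresh-frozen libraries 2257 to 2835 CPM, while PFA-fixed libraries ran from 2645 to 4009 CPM. Within that sum, counted in reads and not corrected for transcript length, NEFM made up 49.3 ± 2.4% in PFA-fixed and 32.9 ± 0.8% in fresh-frozen libraries. NEFL made up 24.5 ± 2.0% in PFA-fixed and 41.4 ± 1.1% in fresh-frozen libraries. The share of NEFH was 26.2 ± 0.6% in PFA-fixed and 25.6 ± 0.5% in fresh-frozen libraries (SD, n = 4 each).

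INA, the gene of internexin alpha, an intermediate filament protein that assembles with the neurofilament subunits in central neurons, fell by 0.56 ± 0.14 (SE; limma adjusted p = 0.00456) with no overlap between groups. PRPH, the gene of peripherin, a filament of peripheral and some central neurons, stood at 1.18, 0.78, 1.08 and 1.52 log2 CPM in PFA-fixed replicates 1 to 4, and at 4.34, 0.99, 1.71 and 0.82 in fresh-frozen replicates 1 to 4. It was high in fresh-frozen replicate 1 only, and its change did not pass (-0.82, limma adjusted p = 0.261). Filament genes of other cell types also fell. Vimentin (VIM), of glia and mesenchyme, fell by 1.12, nestin (NES) fell by 3.04, and the muscle gene desmin (DES) fell by 3.80.

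Genes were ranked by how closely their profile over the 8 libraries followed each neurofilament gene, as the root mean square difference after each gene was centred on its own mean. Among the nearest to NEFL were TMEM151B (0.102) and the brain sulfotransferase gene SULT4A1 (0.103). Nearest to NEFM were CELF4, a neuronal RNA-binding protein gene (0.118), RIMS3, of the presynaptic active zone (0.127), and ACAP3 (0.129). Nearest to NEFH were the channel genes HCN4 (0.0651) and KCNA2 (0.0732) and the complexin gene CPLX1 (0.0830). The median distance of all other genes was 0.591 from NEFL, 0.529 from NEFM and 0.461 from NEFH.

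Levels of glial and horizontal cell markers are given beside those of the neurofilament genes, which did not change alike. Of 9 Schwann cell markers, 8 fell and 1 rose, with a median change of -3.67 and a summed level of 53.5 to 57.6 CPM in PFA-fixed and 332 to 508 CPM in fresh-frozen libraries. Of 11 oligodendrocyte markers, 6 fell and 1 rose, with a median change of -1.19 and a summed level of 103 to 117 CPM in PFA-fixed libraries. Their sum was 1142 CPM in fresh-frozen replicate 1 and 219 to 285 CPM in the other 3 fresh-frozen libraries. All 3 neurofilament genes lay below their group mean in fresh-frozen replicate 1, by 0.24 to 0.28. Of 3 astrocyte markers, 1 fell, and their sum was 108 to 121 CPM in PFA-fixed and 122 to 1657 CPM in fresh-frozen libraries, highest in fresh-frozen replicate 1. Of 10 horizontal cell markers, 2 rose and 5 fell, and their sum was 1091 to 1142 CPM in PFA-fixed and 866 to 1005 CPM in fresh-frozen libraries. The part of these glia or of horizontal cells in the neurofilament levels was not tested.

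GAP43 encodes a phosphoprotein of growth cones and presynaptic terminals. It stood at 5.67, 5.58, 5.71 and 5.98 log2 CPM in PFA-fixed replicates 1 to 4, and at 4.33, 4.33, 5.02 and 4.94 in fresh-frozen replicates 1 to 4. All PFA-fixed libraries were above all fresh-frozen ones, which 31.3% of all genes showed in this direction. GAP43 rose by 1.08 ± 0.17 (SE; limma adjusted p = 0.000114), the largest rise among the 9 genes. BASP1 and MARCKS, which encode membrane-bound proteins of the same functional family, both fell. The values were -0.64 for BASP1 (limma adjusted p = 0.00116) and -1.31 for MARCKS (limma adjusted p = 1.90e-07).

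STMN2 encodes stathmin 2, a neuronal regulator of microtubules needed for axon growth and repair. Its levels were 7.22, 6.77, 6.94 and 7.89 log2 CPM in PFA-fixed replicates 1 to 4, and 6.88, 6.37, 7.77 and 7.09 in fresh-frozen replicates 1 to 4. The groups overlapped over most of their range, and the change of 0.18 ± 0.28 (SE) did not pass (limma adjusted p = 0.592), with a 95% confidence interval of -0.44 to 0.79. Its value was -0.05 without PFA-fixed replicate 4 and -0.04 without fresh-frozen replicate 2. Among its relatives, STMN1 fell by 0.36 (limma adjusted p = 0.00269), while STMN3 and STMN4 changed by -0.38 and -0.26 and did not pass (limma adjusted p = 0.0951 and 0.224).

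**Figure D3:**
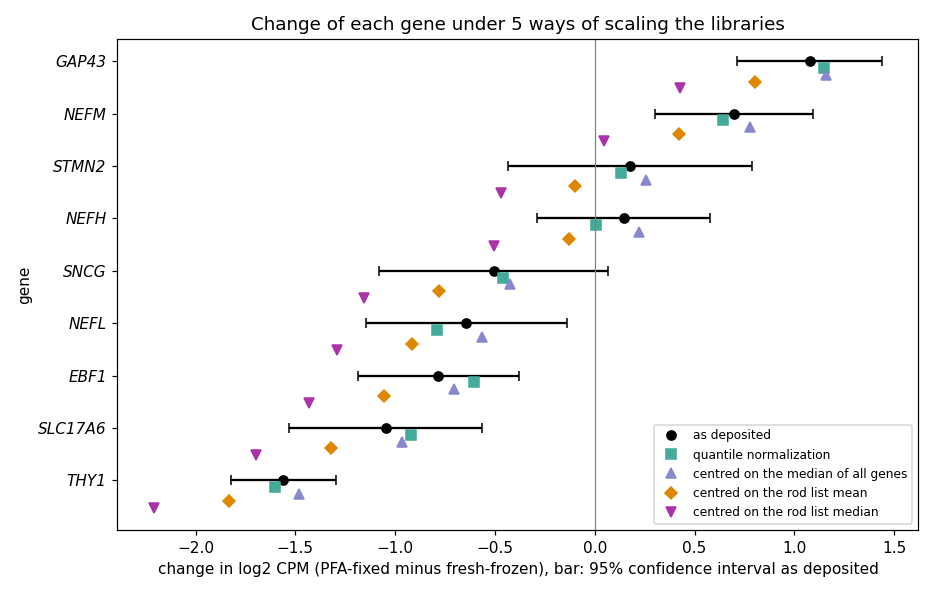
Change of each gene (PFA-fixed minus fresh-frozen, log2 scale, horizontal axis), with the 95% confidence interval of the deposited scaling as a bar and symbols for 5 ways of scaling the libraries. Centring on rod genes shifts every gene to the left, NEFH and STMN2 across 0 and NEFM to 0.05 with the rod list median.

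The direction of the smaller changes rested on the scaling of the libraries. Centring each library on the mean of 20 rod genes moved the median of all genes to -0.29, and centring on their median moved it to -0.67. Centring on their median lowered the rod genes themselves as well, to a median change of -0.37, with 1 called higher and 13 lower. The median change of the rod genes was 0.28 as deposited and 0.01 after centring on the mean. NEFM then changed by 0.42 after centring on the mean and by 0.05 after centring on the median, and passed in neither (limma adjusted p = 0.0965 and 0.859). GAP43 passed with the mean (0.80, limma adjusted p = 0.00406) and not with the median (0.43, limma adjusted p = 0.102). SNCG was called lower with both (-0.78 and -1.15, limma adjusted p = 0.0346 and 0.00220). NEFH changed by -0.13 and -0.50 and STMN2 by -0.10 and -0.47, none of which passed. THY1, SLC17A6, EBF1 and NEFL stayed lower in both, by up to 2.21, 1.70, 1.43 and 1.29 with the rod list median.

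Within each group the 9 genes moved together from library to library. All 9 were highest in PFA-fixed replicate 4 among PFA-fixed libraries and in fresh-frozen replicate 3 among fresh-frozen libraries, where 28.1% and 26.6% of all genes were highest. Fresh-frozen replicate 2 was the lowest for all 9. PFA-fixed replicates 2 and 3 shared the lowest place, with 5 and 4 genes. On average over the 9 genes, PFA-fixed replicate 4 lay 0.44 above its group mean and PFA-fixed replicates 2 and 3 lay at -0.26 and -0.24 relative to it. Fresh-frozen replicate 3 lay 0.52 above its group mean, and fresh-frozen replicates 1 and 2 lay at -0.18 and -0.39.

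**Figure D4:**
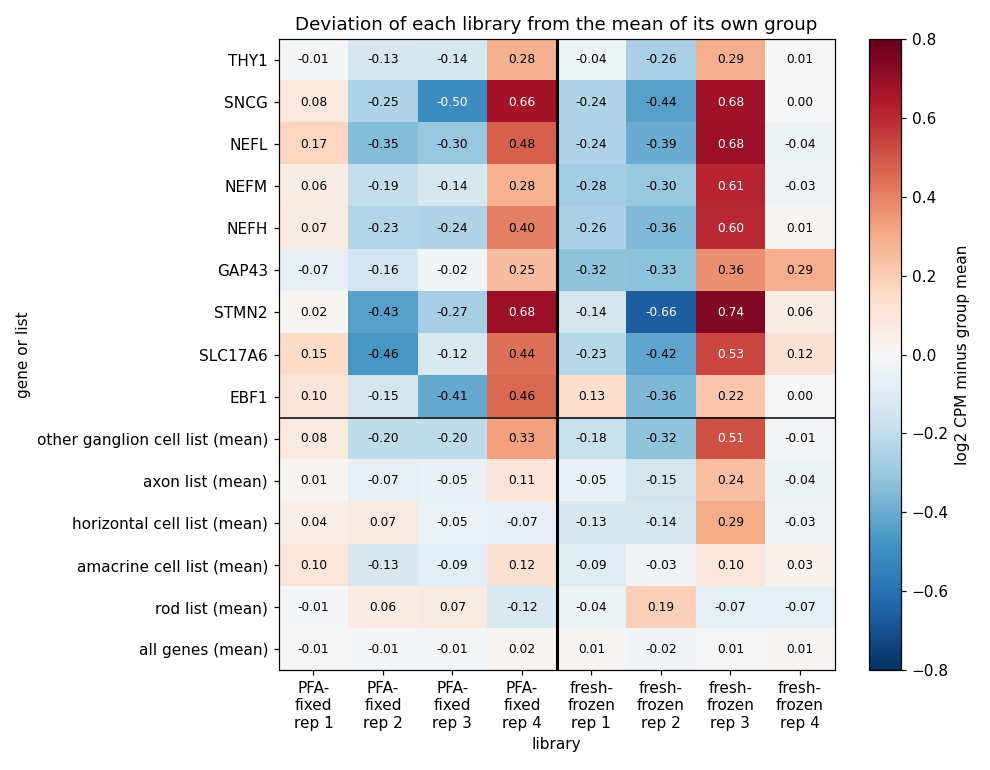
Difference of each library from the mean of its own group (log2 scale, colour and printed value) for the 9 genes and for the mean of 5 other lists and of all genes; columns are libraries, PFA-fixed left of the line and fresh-frozen right of it. The columns of PFA-fixed replicate 4 and fresh-frozen replicate 3 are above 0 for every one of the 9 genes. They are also above 0 for the means of the other ganglion cell, axon and amacrine cell lists, and at 0.02 and 0.01 for all genes.

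The spread of these genes between replicates was accordingly wide. Their median SD was 0.37 in PFA-fixed and 0.42 in fresh-frozen libraries, against medians of 0.15 and 0.16 over all genes. STMN2 spread more than 94.2% of all genes among PFA-fixed and more than 95.9% among fresh-frozen libraries. THY1 was the steadiest of the 9 in fresh-frozen retina, with an SD of 0.22. Once the mean of the other 8 genes was subtracted within each library, the median SD was 0.15 in PFA-fixed and 0.12 in fresh-frozen libraries. On that relative scale NEFM, NEFH, GAP43 and STMN2 lay higher in every PFA-fixed library than in any fresh-frozen one, and THY1, NEFL, SLC17A6 and EBF1 lower, with SNCG overlapping. These relative differences were 1.09 for NEFM, 0.47 for NEFH, 1.52 for GAP43 and 0.50 for STMN2, against -1.45 for THY1, -0.42 for NEFL, -0.87 for SLC17A6 and -0.58 for EBF1. They balance around 0 by construction and carry no test. Subtracting the other genes also removes the spread that the 9 genes share. The share of all genes without overlap on such a scale was not determined. As deposited, NEFH and STMN2 overlapped between groups and did not pass.

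A separate list of ganglion cell genes, with 17 measured, followed the same libraries. Of its genes, 10 were highest in PFA-fixed replicate 4 and 13 in fresh-frozen replicate 3, with mean deviations of 0.33 and 0.51. Of the 18 relatives, 15 were highest in PFA-fixed replicate 4 and 10 in fresh-frozen replicate 3. Of 36 genes of the axon cytoskeleton, transport and membrane, 21 were highest in PFA-fixed replicate 4 and 26 in fresh-frozen replicate 3. Of 12 amacrine cell markers, 6 were highest in PFA-fixed replicate 4 and 7 in fresh-frozen replicate 3. Schwann cell markers deviated by 0.49 on average in PFA-fixed replicate 4 and by 0.06 in fresh-frozen replicate 3. Horizontal cell markers deviated by 0.29 on average in fresh-frozen replicate 3, where 9 of 10 were highest, and by -0.07 in PFA-fixed replicate 4. The 20 rod genes deviated by -0.12 in PFA-fixed replicate 4 and by -0.07 in fresh-frozen replicate 3, and by 0.19 in fresh-frozen replicate 2.

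Between the groups, 2 of the 17 genes of that list rose and 4 fell, with a median change of 0.02. After quantile normalization 4 rose and 3 fell, with a median change of 0.30. Of all 12824 genes, 4872 then rose and 4008 fell, with a median change of 0.07. SYT2, FOXP2 and POU4F2 are named after their values were seen. POU4F1 and POU4F2, transcription factors of ganglion cell development and identity, fell by 1.34 and 1.09 (limma adjusted p = 0.00527 and 0.0257), and POU4F2 no longer passed without PFA-fixed replicate 3, fresh-frozen replicate 3 (-0.70) or fresh-frozen replicate 4. RBPMS2 fell as given above, and the synaptotagmin gene SYT2 fell by 0.68 (limma adjusted p = 0.00539). OPN4, the melanopsin of light-sensitive ganglion cells, rose by 1.33 (limma adjusted p = 0.0123). It averaged 1.02 ± 0.37 log2 CPM in PFA-fixed and -0.31 ± 0.82 in fresh-frozen retina (SD, n = 4 each). Its groups overlapped, with PFA-fixed replicate 3 at 0.50 and fresh-frozen replicate 2 at 0.58. The level was low, down to -1.10 in fresh-frozen replicate 4. FOXP2, a transcription factor of some ganglion cell types, rose by 0.76 (limma adjusted p = 9.84e-05). With the rod list median, OPN4 and FOXP2 did not pass (0.68 and 0.11) and 8 of the 17 genes were called lower, none higher. Of all 12824 genes, 8074 were called lower and 1138 higher with that scaling. SCN1A and ELAVL3, the most abundant of the list, changed by 0.02 and 0.38 and did not pass (limma adjusted p = 0.899 and 0.0629).

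Of 36 measured genes of the axon cytoskeleton, axonal transport and axon membrane, 10 rose and 13 fell, with a median change of -0.04. Rises included the microtubule-binding MAP1B (0.52) and the cytoskeletal linker DST (0.62), and falls the spectrin gene SPTBN1 (-1.28) and DPYSL2 (-1.17), whose product takes part in axon guidance. With the rod list median, MAP1B and DST changed by -0.13 and -0.03, and the counts were 0 higher and 25 lower. Of all 12824 genes, 1138 were then higher and 8074 lower. With the rod list mean the counts were 6 higher and 17 lower, against 2565 higher and 6024 lower among all 12824 genes.

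**Figure D5:**
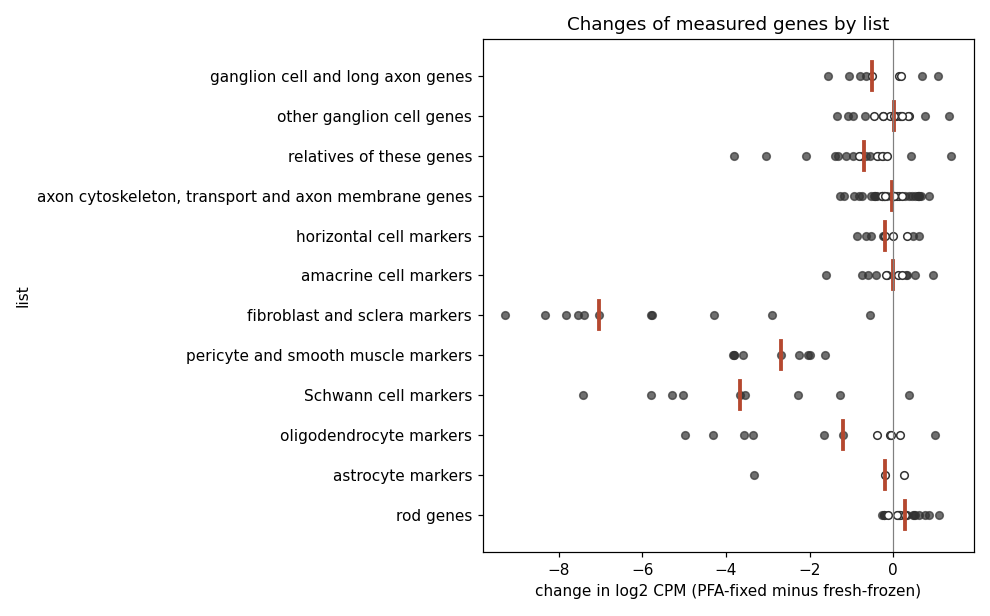
Changes (PFA-fixed minus fresh-frozen, log2 scale, horizontal axis) of all measured genes of each list; filled points passed limma's test, open points did not, and the red bar is the list's median. Ganglion cell and axon genes lie on both sides of 0, and all fibroblast and pericyte markers lie below it.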

How the data were processed

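Total RNA libraries of 4 PFA-fixed and 4 fresh-frozen retina samples were made with 1 stranded low-input kit, per the labels' protocols. Per the submitters' processing notes the authors used kallisto 0.48.0, edgeR and limma. What transcripts were indexed and how low genes were removed is not given in the sources used here. Values deposited by the authors are log2 CPM. All 8 libraries share the lowest value of -3.12. Low values (20 reads or fewer) fell within 0.1 of a whole read for 60.4% to 66.7% of genes in a library, against 20% by chance, so reads were not recovered and no count test was run.

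limma 3.58.1 with an intensity trend (R 4.3.3) was fitted to the deposited log2 values of all genes with group as the only term, and p-values were Benjamini-Hochberg adjusted over 12824 genes. The step was tested on simulated data. Neurofilament ratios were tested by exact two-sided permutation over 70 assignments. Libraries are replicates by label only, so p-values set the group difference against the spread between these libraries. The labels do not say which libraries share a dog, so this may not be the spread between dogs. Deviations of same-numbered libraries of the 2 groups had correlations of 0.05, 0.15, -0.09 and 0.22 across genes for replicates 1 to 4. Differently numbered libraries were not compared, so these values cannot tell whether the numbers mark pairs. The main fit did not use the numbers as pairs. Members and lists were chosen with earlier results of these data known. Genes named beside the 10 are measured relatives, the 2 most abundant and the 2 called genes of largest change of a list, and the 3 nearest profiles of each neurofilament gene; a few genes under this rule are not reported here. Alternatives were leaving out each library, a replicate block, 4 other scalings, a minimum mean of 3 log2 CPM, log2(CPM + 1) and no intensity trend. The gene table of UU_Cfam_GSD_1.0 was used for names and neighbours only.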

Additional observations from a re-analysis of the deposited data

Results flagged for a closer look

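Of 82 sets of 4 libraries examined, 5 held a library far from the other 3, and chance gives about 1 in 20. Summed over the axon cytoskeleton, transport and membrane list, fresh-frozen replicate 3 had 27181 CPM, against 23841 to 24171 CPM in the other 3 fresh-frozen libraries. Oligodendrocyte markers summed to 1142 CPM in fresh-frozen replicate 1, against 219 to 285 CPM in the other 3. Astrocyte markers summed to 1657 CPM in fresh-frozen replicate 1, against 122 to 166 CPM in the other 3. The desmin gene DES stood at 6.66 log2 CPM in fresh-frozen replicate 1, against 5.51 to 5.66 in the other 3. The nestin gene NES stood at 6.32 log2 CPM in fresh-frozen replicate 4, against 6.80 to 6.85 in the other 3.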

How the results depend on the processing

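Of 12824 genes, 8804 were called (4353 higher and 4451 lower), and 8338 to 8649 without single libraries (4107 to 4285 higher, 4231 to 4380 lower). Centring on the rod list mean gave 2565 higher, and centring on its median, an alternative chosen after seeing the data, gave 1138 higher and 8074 lower. Of these calls, 49.4% were rises as deposited, 29.9% after centring on the mean and 12.4% after centring on the median. Centring on the median also left the 20 rod genes themselves with a median change of -0.37. Of the 9 genes, 2 rose under every leave-one-out fit and 3 to 5 fell. Centring on the mean left 1 called higher, and centring on the median left 0. NEFH turned to -0.13 and -0.50 and STMN2 to -0.10 and -0.47 under these scalings, and STMN2 ran from -0.051 (without PFA-fixed replicate 4) to 0.42 (without fresh-frozen replicate 3), with -0.04 without fresh-frozen replicate 2. The cause of these turns was not tested. Without single libraries the neurofilament differences ran from 1.29 to 1.41 (NEFM to NEFL), 0.75 to 0.82 (NEFH to NEFL) and -0.59 to -0.52 (NEFH to NEFM). With the replicate block, the same-numbered differences were 1.34, 0.79 and -0.55, with the smallest sign-flip p that 4 pairs allow (exact p = 0.125), and limma with the block called 8799 genes and changed no call among the 9 genes. The fewest estimated reads of any of the 9 genes in a library were about 130 (SLC17A6) and 142 (EBF1).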
